A study of Mus musculus with 8 samples.

Results

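Loss of β-catenin was compared with the wild type in descendants of hypertrophic chondrocytes, the swollen cells that close the growth plate's sequence of cartilage zones, in mice at postnatal day 5. The comparison set 4 loss-of-function libraries (LoF) against 2 wild-type libraries (WT) over every gene with at least 1 FPKM (sequenced fragments per unit of transcript length, relative to all fragments mapped in that library) in at least 2 of these 6 libraries. That filter kept 12207 of the 48490 genes in the table. LoF mice carried Col10a1Cre, the Cre-dependent Rosa26-Tdtomato reporter and Ctnnb1Δ/Δ. WT mice carried Col10a1Cre and the reporter alone, so the driver and the reporter were shared by all groups. Another group of 2 gain-of-function libraries (GoF) carried the same driver and reporter with Ctnnb1-exon3 Δ/+; these libraries served here to estimate the spread, and their values are given beside a few genes. Each library was made with Smart-seq2, a full-length cDNA method for very small RNA amounts, by pooling 70 cells that carried red tdTomato signal and were picked by hand from the proximal tibia. Col10a1Cre acts in hypertrophic chondrocytes and the reporter stays on in their progeny, so a picked cell is defined by its ancestry and not by its present type. The reporter recombines independently of Ctnnb1 and does not by itself show that a picked cell has lost it. The labels do not say whether the libraries came from separate animals, and a p-value here reflects only how these libraries scatter, which can be partly technical.

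β-Catenin, encoded by Ctnnb1, is the transducer of canonical Wnt signalling and also links cadherins to the actin skeleton. Without a Wnt signal a destruction complex of Apc, Axin and Gsk3 marks it for degradation; with one it accumulates, enters the nucleus and activates genes with TCF and LEF proteins. In the bone-forming lineage Wnt signalling is known to favour osteoblasts, the cells that secrete bone matrix, over cartilage and fat fates, and osteoblasts that become buried in matrix turn into osteocytes. Hypertrophic chondrocytes can give rise to osteoblasts and to other mesenchymal cells of the marrow.

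Several library features bear on the comparison. FPKM summed to 293194 to 349378 in LoF and to 324898 and 344040 in WT, and between 12587 and 13944 genes were above 0 per library. Ribosomal RNA-like genes took 3.65% to 4.6% of FPKM in LoF and 10.2% to 11.3% in WT; leaving these genes out and rescaling gave 94 genes higher and 145 lower, against 97 and 106 as reported below. LoF libraries 2 and 3 held Y-linked transcripts and no Xist, while LoF libraries 1 and 4 and both WT libraries held Xist and no Y-linked transcripts, so sex differed within LoF and not within WT. Spearman correlations over genes were 0.752 to 0.818 between LoF libraries, 0.834 between the WT libraries and 0.722 to 0.801 across the groups.

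Markers of other cell types were present at uneven levels. Of 13 endothelial markers, 12 were above 0 in LoF library 3, with a summed level of 122 FPKM, against 1.5 to 18.4 FPKM in the other LoF libraries and 5.43 and 7.58 FPKM in WT. Pecam1, an endothelial adhesion molecule, was at 0.394, 0, 9.4 and 0 FPKM in LoF and at 0 and 0.181 FPKM in WT. The 20 blood cell markers summed to 42.6 to 174 FPKM in LoF and to 289 and 113 FPKM in WT; Ptprc, the pan-leukocyte marker CD45, was at 0, 4.66, 0 and 0 FPKM in LoF and 0.132 and 0 in WT, and Cd79a of B cells was at 4.62 FPKM in LoF library 2. Globins and other red cell genes summed to 76.0 to 2277 FPKM in LoF and to 2559 and 10575 FPKM in WT, the larger value in WT library 2. None of 7 tested erythroid genes, 4 endothelial genes, 9 contractile genes and 5 osteoclast genes was called changed, and 1 of 11 blood cell genes was, Mpo. The osteoclast list was carried by Mmp9, which is not particular to osteoclasts. Of 12 genes in this list, 5 or 6 were above 0 in each LoF library and 6 in each WT library. Calcr, Dcstamp, Ocstamp, Oscar and Siglec15 were at 0 in all 6 libraries. The 5 tested members, Mmp9 among them, had a median log2(FPKM + 1) of 2.182 to 2.999 in LoF and 2.339 and 2.655 in WT. The part of these cells in the results below was not tested. Col10a1, the collagen that defines hypertrophic chondrocytes, was at 9.61, 114, 59.3 and 69.4 FPKM in LoF and 6.24 and 20.5 in WT. Its transcript was thus present in every library, which does not show the ancestry of the cells in a pool.

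**Figure D1:**
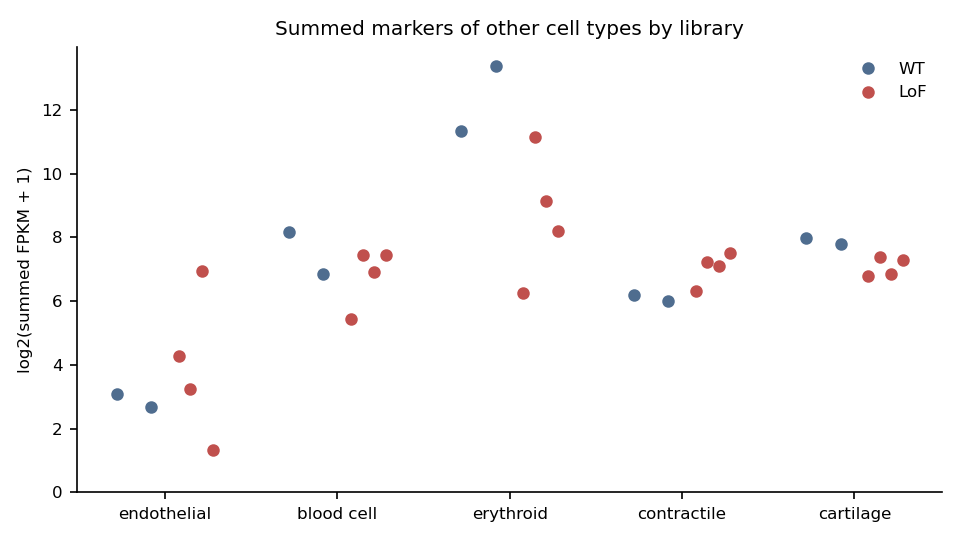
Summed FPKM of marker lists for endothelial, blood, red blood, contractile and cartilage cells, as log2(summed FPKM + 1) on the y axis, with 1 point for each LoF and WT library. The endothelial sum of LoF library 3, 122 FPKM, stands above the other 5 libraries, and the erythroid sums of WT, 2559 and 10575 FPKM, stand above those of LoF.

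Ctnnb1 itself (ENSMUSG00000006932.16, chr9:120929216-120960507, coordinates here and below on mm10 as in the deposited table) was at 81.02, 67.3, 70.4 and 81.1 FPKM in LoF and 137 and 146 FPKM in WT. Every LoF library lay below both WT libraries, with means of 74.96 ± 7.17 FPKM (SD, n = 4) in LoF and 142 ± 5.98 FPKM (SD, n = 2) in WT. The difference did not pass the test across all genes (-0.91 ± 0.25 on the log2 scale, adjusted p = 0.109, limma with Benjamini-Hochberg adjustment, as for all adjusted p-values here). A deletion removes some exons only, and gene-level FPKM counts reads over the whole transcript, so reads from exons that remain would still be counted; which exons gave these reads was not analysed here. A value with ± on the log2 scale is the log2 fold change with its SE, and the fold change is a difference of log2(FPKM + 1), LoF minus WT; the scale understates the change of genes at low levels.

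Across the 12207 genes, 106 (0.868%) were lower and 97 (0.795%) were higher in LoF at an adjusted p under 0.05. All 203 had LoF libraries wholly on one side of the WT libraries. By that simpler measure 1207 genes (9.89%) had all LoF libraries below both WT libraries and 1469 (12%) had all above. Called genes differed by 1.09 to 6.2 on the log2 scale, with a median of -2.42 for the lower and 2.28 for the higher genes, beside a median of 0.07 over all tested genes. The 12 named genes that fell most included Dmp1, Col1a1, Smpd3 and Sgms2 of bone, and also Gal, Wisp1, Car3 and others of varied function; the 12 that rose most included Fabp4, Cd36, Lpl, Igf2, Igfbp2 and S100a6, and also Pcbd2, Clu and Ptx3. With quantile normalization 97 genes were higher and 167 lower. The calls rest on 2 WT libraries: without WT library 1, 29 higher and 15 lower genes were called, and without WT library 2, 3 higher and 2 lower, among which only S100a6 and Stfa1 were of the 203. Without LoF library 2, 43 were higher and 54 lower, and without LoF library 4, 64 were higher. The calls of Bambi, Cxcl12, Hey1, Htra1 and Klf12 were lost with any single LoF library left out, and those of Gal, Clu, Plin2, C1qtnf3 and Prss23 without LoF library 2, 3 or 4. Without the LoF libraries that hold Y-linked transcripts, 2 against 2, no gene was called higher or lower, and with sex as a covariate 7 were higher and 10 lower. None of the 203 changed sign under any of 17 alternative settings. For genes whose groups do not overlap, leaving out libraries or changing the pseudocount, filter or trend cannot turn the sign. Of the tested genes, 1020 reached the filter through LoF libraries alone, 17 of them called, and 99 through WT libraries alone, 14 of them called. Among genes of the lists, Fzd9, Smad6 and Dll1 lay just inside the filter, with a second-highest FPKM of 1.08, 1.10 and 1.14, and Ror1, Adm and Fzd2 just outside, with 0.981, 0.974 and 0.952. For a single gene, an exact two-sided permutation test of 4 against 2 libraries cannot go below p = 0.0667, so calls come only from the model across all genes.

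**Figure D2:**
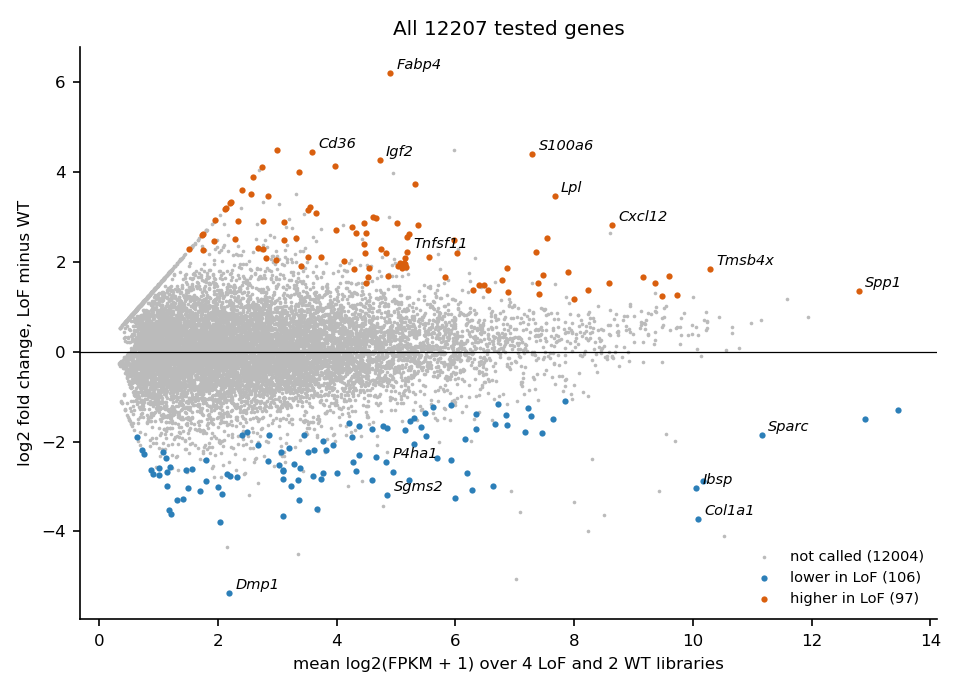
Each point is 1 of 12207 tested genes, with its mean log2(FPKM + 1) over the 4 LoF and 2 WT libraries on the x axis and its log2 fold change, LoF minus WT, on the y axis; coloured points are the 106 lower and 97 higher genes at an adjusted p under 0.05. Called genes are found at low and at high levels, and among them Dmp1 at -5.37 and Fabp4 at 6.2 lie farthest out.

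Stretches before the start sites of 4 called genes are given, as RefSeq lists them for GRCm38.p6, to show the sequence context of a gene of bone matrix (Sgms2), of osteocytes (Dmp1), of lipid uptake (Cd36) and of marrow stroma (Kitl); each is the called member of its list with the smallest adjusted p among those with an entry. Capitals mark matches on either strand to TGTGGT, the core bound by RUNX factors, or to AGGTCA, the half-site of PPAR and related nuclear receptors. The stretches end 1 base before the start site, or where an annotated exon begins.
Sgms2, chr3:131491444-131491693, minus strand: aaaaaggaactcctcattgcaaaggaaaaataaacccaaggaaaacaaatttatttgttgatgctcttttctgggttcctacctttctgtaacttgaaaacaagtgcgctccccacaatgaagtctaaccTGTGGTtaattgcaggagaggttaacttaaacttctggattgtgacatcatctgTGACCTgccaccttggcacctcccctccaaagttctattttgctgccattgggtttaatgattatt
Dmp1, chr5:104202367-104202612, plus strand: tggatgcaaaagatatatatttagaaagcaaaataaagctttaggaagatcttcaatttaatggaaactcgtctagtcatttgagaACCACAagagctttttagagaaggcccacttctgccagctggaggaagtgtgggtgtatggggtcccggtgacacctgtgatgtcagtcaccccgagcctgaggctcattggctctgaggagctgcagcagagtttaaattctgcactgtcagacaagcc
Cd36, chr5:17835897-17836146, minus strand: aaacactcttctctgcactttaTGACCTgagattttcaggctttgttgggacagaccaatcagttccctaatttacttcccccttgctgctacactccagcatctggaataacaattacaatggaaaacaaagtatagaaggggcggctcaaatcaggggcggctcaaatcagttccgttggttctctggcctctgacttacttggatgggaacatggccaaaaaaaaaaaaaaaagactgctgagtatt
Kitl, chr10:100015571-100015629, plus strand: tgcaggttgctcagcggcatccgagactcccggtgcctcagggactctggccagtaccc
The RUNX core lay 120 to 115 bases before the start of Sgms2 and, on the other strand, 164 to 159 before that of Dmp1. AGGTCA lay on the other strand 66 to 61 bases before the start of Sgms2 and 228 to 223 before that of Cd36, whose RefSeq start is 52905 bases from the gene edge in the deposited table. CTTTGAT, the core bound by TCF and LEF proteins, was in none of the 4 windows of 250 bases. Among the 8563 tested genes with an entry, 2.31% held CTTTGAT, 10.5% TGTGGT and 10.1% AGGTCA; of the 60 lower genes with an entry these shares were 6.67%, 18.3% and 10%, and of the 65 higher genes 3.08%, 15.4% and 20%. TATAAA was in 6.03% of the tested genes, 10% of the lower and 16.9% of the higher ones. These are letter matches in short windows and were not tested.

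Genes of osteoblasts held more calls than any other list. Of 30 osteoblast genes, 13 were lower in LoF and 2 were higher, against 0.868% and 0.795% of all genes, and 15 were not called. All 4 LoF libraries lay below both WT libraries in 18 of 30, against 9.89% of all genes. The median log2 fold change of the list was -1.88. Its members summed to 12263 to 15885 FPKM in LoF and to 25765 and 27264 FPKM in WT, or 3.51% to 4.6% against 7.93% of all FPKM in a library. In pools of cells, fewer cells of a type and less RNA per cell cannot be told apart.

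Type I collagen, the main protein of bone, was lower in both of its chains. Col1a1 (ENSMUSG00000001506.10, chr11:94936224-94953042) was at 821, 244, 325 and 678 FPKM in LoF and 5470.0 and 6681 FPKM in WT. LoF libraries 2 and 3 were the lowest, and the highest LoF library was still several times below WT (-3.72 ± 0.42 on the log2 scale, adjusted p = 0.00296). Col1a2, the second chain of the same triple helix, was at 1070.0, 413, 383 and 718 FPKM in LoF and 3856 and 4925 in WT (-2.88 ± 0.38 on the log2 scale, adjusted p = 0.00517), with the same LoF libraries at the bottom. The type V chains Col5a1 and Col5a2, which sit inside type I fibrils, also fell, with log2 fold changes of -1.91 and -1.94 (adjusted p = 0.0304 and 0.00997). Col22a1, a fibril-associated collagen, also fell (-2.63 ± 0.57 on the log2 scale, adjusted p = 0.0467). Col3a1, the fibrillar collagen of loose connective tissue, went the other way, at 97.6, 120.5, 92.7 and 136 FPKM in LoF and 14.8 and 23.9 in WT (2.49 ± 0.42 on the log2 scale, adjusted p = 0.0155), so the change in fibrillar collagens was not uniform.

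The non-collagen proteins of bone matrix split as well. Ibsp, bone sialoprotein, was at 774, 373, 319.8 and 823 FPKM in LoF and 5194 and 3564 in WT (-3.03 ± 0.39 on the log2 scale, adjusted p = 0.00477). Sparc, osteonectin, which binds collagen and calcium, was at 1927, 1368, 1152 and 1606 FPKM in LoF and 4756 and 6096 in WT (-1.86 ± 0.24 on the log2 scale, adjusted p = 0.00499). Both lay below WT in every LoF library. Spp1, osteopontin, a matrix protein made by hypertrophic chondrocytes, osteoblasts and other cells, was higher, at 7823, 11845, 8869 and 10808 FPKM in LoF and 4236 and 3449.8 in WT (1.34 ± 0.25 on the log2 scale, adjusted p = 0.0259). Serpinf1, a secreted serpin whose loss causes brittle bone, fell (-1.81 ± 0.30 on the log2 scale, adjusted p = 0.0153). The osteocalcin genes were too variable to call: Bglap was at 33.8, 9.02, 7.07 and 4.38 FPKM in LoF and 27.8 and 231 in WT (-2.88 ± 0.86 on the log2 scale, adjusted p = 0.137), and Bglap2 at 26.4, 0, 1.24 and 8.84 and 3.02 and 149 (-2.31 ± 1.39 on the log2 scale, adjusted p = 0.521). They are close copies of each other, so reads may be split between them.

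Further called genes of the osteoblast list act at the cell membrane or in signalling. Ifitm5, a bone-restricted membrane protein also known as BRIL, was at 40.4, 29.8, 25.9 and 60.7 FPKM in LoF and 374 and 274 in WT (-3.07 ± 0.36 on the log2 scale, adjusted p = 0.00296). Sgms2, a sphingomyelin synthase (ENSMUSG00000050931.7, chr3:131318985-131491411), was at 18.01, 12.05, 7.45 and 16.3 FPKM in LoF and 146 and 108 in WT (-3.19 ± 0.36 on the log2 scale, adjusted p = 0.00296), and Smpd3, the neutral sphingomyelinase whose loss impairs mineralisation, at 7.397, 0.81, 0.734 and 5.99 and 51.1 and 40.5 (-3.66 ± 0.64 on the log2 scale, adjusted p = 0.0194). For both enzymes of sphingomyelin turnover all LoF libraries were below WT, and for Smpd3 LoF libraries 2 and 3 were near 0 while libraries 1 and 4 were not. Bmp3, a BMP family member made by osteoblasts, was at 1.54, 0.236, 0 and 2.27 FPKM in LoF and 11.1 and 13.2 in WT (-2.87 ± 0.57 on the log2 scale, adjusted p = 0.0324). Alpl, the alkaline phosphatase that frees phosphate for mineral, was at 87.2, 84.2, 199.7 and 198 FPKM in LoF and 328 and 230.2 in WT and was not called (-1.07 ± 0.39 on the log2 scale, adjusted p = 0.238).

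Runx2 and Sp7, transcription factors of the osteoblast lineage, were not called. Runx2, the factor that commits cells to the lineage, was at 33.6, 23.9, 19.4 and 27.9 FPKM in LoF and 38.2 and 63.7 in WT (-0.92 ± 0.37 on the log2 scale, adjusted p = 0.288). Sp7, osterix, which acts after Runx2, was at 11.2, 8.26, 12.8 and 18.98 FPKM in LoF and 31.7 and 35.1 in WT (-1.37 ± 0.36 on the log2 scale, adjusted p = 0.0999). Both factors were present in every library and lower in each LoF library than in WT, but the differences did not pass the test. The distal-less factors Dlx3, Dlx5 and Dlx6 had log2 fold changes of -2.26, -0.37 and -1.16 (adjusted p = 0.0545, 0.778 and 0.29), and Atf4 had -0.15 (adjusted p = 0.923). Without WT library 1 the osteoblast list kept 4 lower genes, Col1a1, Serpinf1, Sgms2 and Sparc, and without WT library 2 none.

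**Figure D3:**
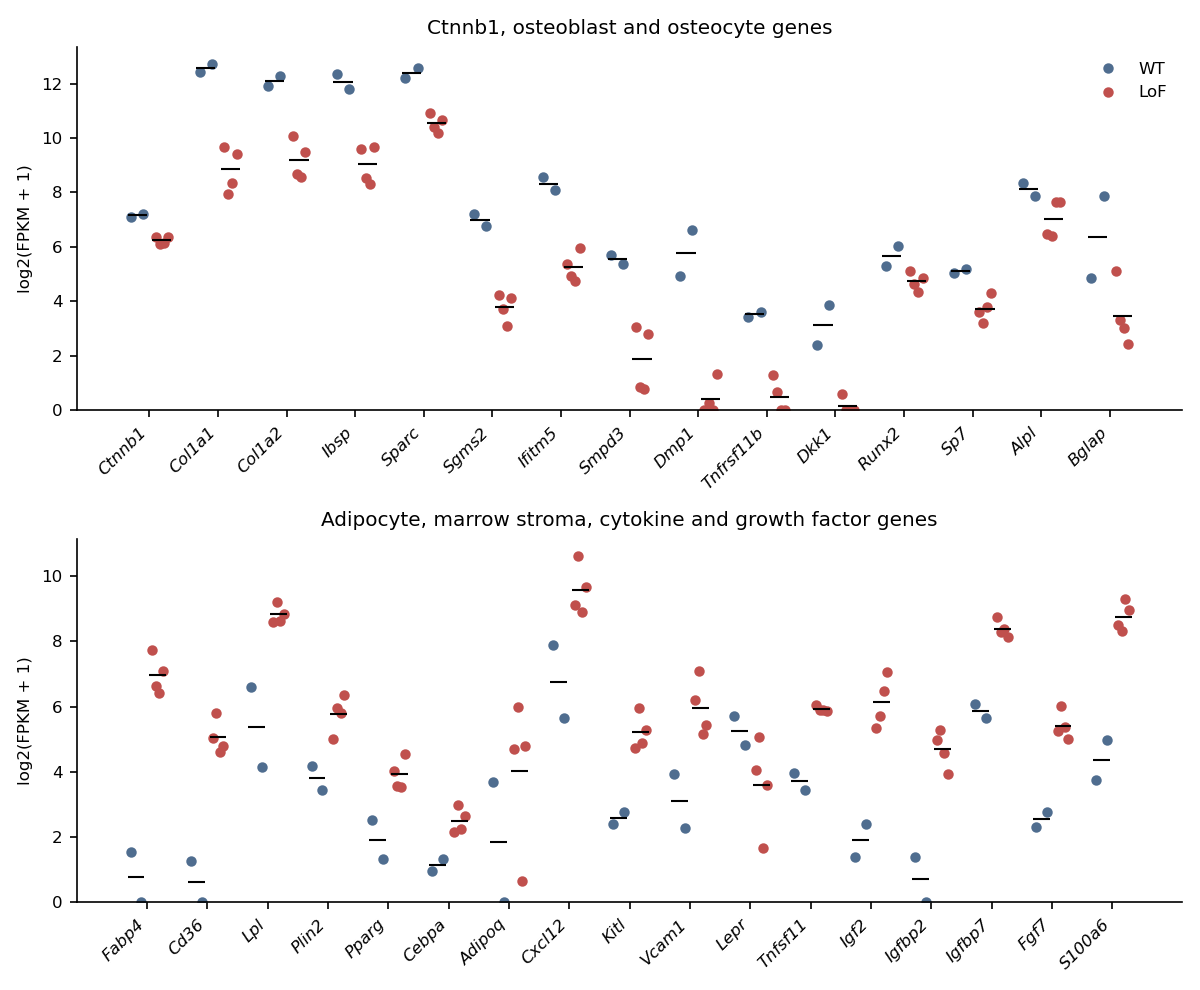
Points are log2(FPKM + 1) of single LoF and WT libraries for Ctnnb1 with osteoblast and osteocyte genes in the upper panel, and for adipocyte, stromal, cytokine and growth factor genes in the lower panel. The LoF and WT libraries of Col1a1, Dmp1, Fabp4 and Cd36 do not overlap, while the groups of Bglap do.

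The osteocyte list held Dmp1, the called gene with the largest drop. Dmp1 (ENSMUSG00000029307.7, chr5:104202613-104214102), a phosphoprotein of the mineralisation front and of osteocytes, was at 0, 0.199, 0 and 1.54 FPKM in LoF and 29.3 and 97.8 in WT (-5.37 ± 0.61 on the log2 scale, adjusted p = 0.00296). Every LoF library was under the lowest WT library by several fold. Of 14 osteocyte genes 10 were tested. Of these 3 were lower, against 0.868% of all genes, and none was higher, with a median of -0.60. The other called members were Tnfrsf11b and Dkk1, described below. Phex, an endopeptidase that regulates phosphate, was at 2.81, 3.18, 5.93 and 4.97 FPKM in LoF and 16.6 and 35.5 in WT (-2.32 ± 0.56 on the log2 scale, adjusted p = 0.0699). The markers of mature osteocytes were nearly silent in both groups: Sost, sclerostin, and Fgf23 were at 0 in all 6 libraries, and Mepe, a matrix phosphoglycoprotein, was at 0 in every LoF library and at 1.23 and 0.811 FPKM in WT. None of these 3 reached the filter. Without WT library 2 no osteocyte gene was called, and without WT library 1, Dmp1 and Dkk1 were.

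Many enzymes that modify, fold and process collagen were lower. Of 26 tested genes, 10 were lower, against 0.868% of all genes, and none was higher. The median was -0.85, and all LoF libraries lay below both WT libraries in 16 of 26, against 9.89% of all genes. Their summed level was 1381 to 1796 FPKM in LoF and 3257 and 2937 in WT. The prolyl 4-hydroxylase subunits, which stabilise the triple helix, were the clearest. P4ha1 (ENSMUSG00000019916.14, chr10:59323296-59373304) was at 14.1, 12.6, 14.95 and 19.8 FPKM in LoF and 92.7 and 83.6 in WT (-2.46 ± 0.28 on the log2 scale, adjusted p = 0.00296), and P4ha2 at 11.5, 9.17, 13.5 and 10.7 FPKM and 57.7 and 60.4 (-2.31 ± 0.29 on the log2 scale, adjusted p = 0.00411). The 4 LoF libraries of each gene were close together and far from WT. P4hb, the partner subunit that also acts as a general disulphide isomerase, was not called (-0.995 ± 0.26 on the log2 scale, adjusted p = 0.0967).

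The remaining called enzymes cover the later steps of collagen assembly. Plod2, which hydroxylates the lysines used in bone crosslinks, and Fkbp10, its partner prolyl isomerase, had log2 fold changes of -1.73 and -1.64 (adjusted p = 0.0334 and 0.0138). P3h1 and P3h4, of the prolyl and lysyl modification complexes, had -1.69 and -1.70 (adjusted p = 0.0309 and 0.0144). Serpinh1, the collagen chaperone Hsp47, was at 88.8, 70.8, 89.7 and 139 FPKM in LoF and 349 and 311 in WT (-1.80 ± 0.29 on the log2 scale, adjusted p = 0.0136). Outside the cell, the propeptidase Bmp1, its enhancer Pcolce and the crosslinking oxidase Lox fell, with log2 fold changes of -1.24, -1.09 and -1.72 (adjusted p = 0.044, 0.0475 and 0.0302). The other members of the prolyl 3-hydroxylation complex, Crtap and Ppib, were not called, at -0.35 and -0.32 (adjusted p = 0.65 and 0.601). Only P4ha1 and P4ha2 kept the call without WT library 1, no member did without WT library 2, and 6 enzymes were called without LoF library 4.

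The secretory route behind these enzymes changed in part. Creb3l1, OASIS, a stress transducer that drives collagen transcription in osteoblasts, was at 25.1, 7.65, 4.56 and 18.1 FPKM in LoF and 80.5 and 98.8 in WT (-2.86 ± 0.53 on the log2 scale, adjusted p = 0.0255). It was the only called gene of 20 tested genes of the unfolded protein response and secretion, whose median was -0.23; this count was 4 with median ratio scaling, quantile normalization or rescaling without ribosomal RNA-like genes, 3 without LoF library 4, and 0 without WT library 1 or 2, with only the 6 libraries or without a trend. The major chaperones Hspa5, Hsp90b1 and Calr had log2 fold changes of -0.04, -0.08 and -0.08 and were not called (adjusted p = 0.963, 0.936 and 0.939). Of 31 translocon, vesicle coat and KDEL receptor genes, a family chosen after its values were seen, 6 were lower, against 0.868% of all genes. These were Kdelr2, Kdelr3, Surf4, Sec61a1, Sec13 and Copb2, with log2 fold changes from -1.61 to -1.16. Sec61a1, the channel through which secreted chains enter the endoplasmic reticulum, was at 73.03, 56.2, 62.2 and 88.04 FPKM in LoF and 231 and 194 in WT (-1.61 ± 0.27 on the log2 scale, adjusted p = 0.0156). Copg2, a coat subunit, was the single higher member (1.86 ± 0.36 on the log2 scale, adjusted p = 0.029); its range overlaps that of Mest on the opposite strand, and without strand information reads of the 2 genes cannot be told apart.

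**Figure D4:**
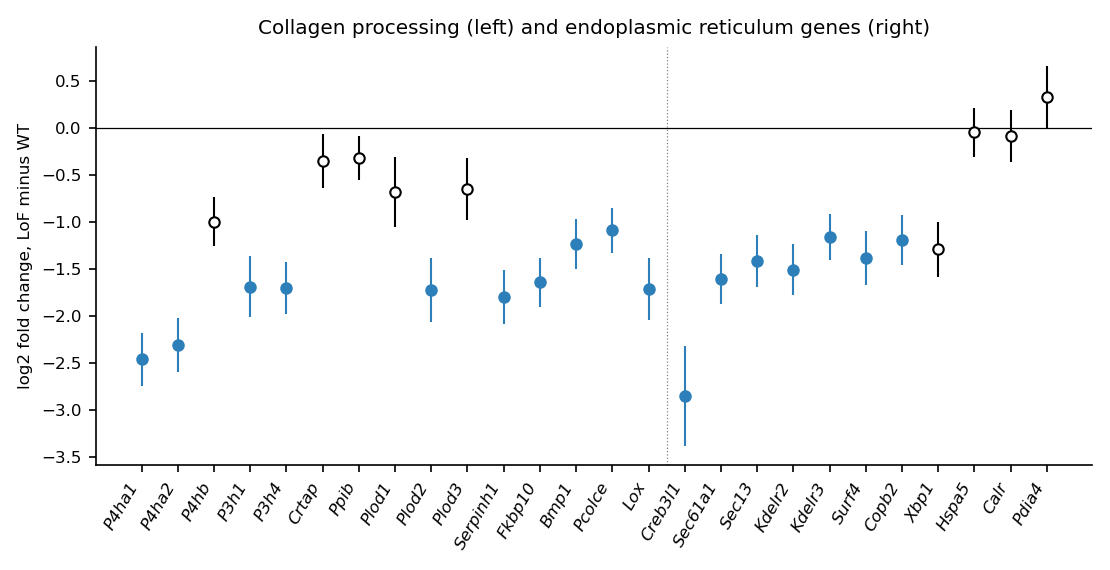
Log2 fold changes, LoF minus WT, of collagen processing genes on the left of the dotted line and of endoplasmic reticulum and secretory genes on the right, with bars for ± 1 SE; coloured points passed an adjusted p under 0.05. P4ha1 and P4ha2, at -2.46 and -2.31, lie lowest among the processing enzymes, and Hspa5 lies at -0.04.

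Small leucine-rich proteoglycans, which coat collagen fibrils and set their diameter, moved in both directions. Of 10 tested, 2 were lower and 1 was higher, against 0.868% and 0.795% of all genes. Dcn, decorin, was at 57, 36.3, 23.3 and 43.7 FPKM in LoF and 152 and 422 in WT (-2.70 ± 0.42 on the log2 scale, adjusted p = 0.0124), and Lum, lumican, at 45.97, 37.96, 17.9 and 40.4 and 131 and 256 (-2.41 ± 0.40 on the log2 scale, adjusted p = 0.0153). Ogn, osteoglycin, was at 65.3, 110.5, 58.6 and 88.8 FPKM in LoF and 12.95 and 8.09 in WT (2.82 ± 0.56 on the log2 scale, adjusted p = 0.0334), a call lost without LoF library 1, 2 or 4. Bgn, biglycan, the most abundant of the family in bone, was at 277, 379.5, 314 and 467 FPKM in LoF and 376 and 318 in WT, a difference of 0.03 that was not called (SE 0.27, adjusted p = 0.979).

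Genes known as Wnt targets were mostly low in both groups. Of 23 Wnt target genes 13 reached the filter. Of these 2, Dkk1 and Bambi, were lower in LoF, against 0.868% of all genes, and none was higher. A negative log2 fold change was found in 12 of the 13, and the median was -1.03. Dkk1, a secreted Wnt inhibitor that Wnt signalling itself induces, was at 0.5, 0, 0 and 0 FPKM in LoF and 4.28 and 13.6 in WT (-2.99 ± 0.54 on the log2 scale, adjusted p = 0.0216), so 3 of 4 LoF libraries were listed at 0. Bambi, a pseudoreceptor that dampens BMP and TGF-β signals, was at 3.27, 3.52, 1.38 and 3.12 FPKM in LoF and 11.1 and 12.7 in WT (-1.79 ± 0.40 on the log2 scale, adjusted p = 0.0489). Axin2, the feedback scaffold often used as a readout of the pathway, was under the filter, at 0, 0, 0 and 0 FPKM in LoF and 0 and 0.323 in WT. Tcf7, a TCF factor and target, was at 3.92, 2.25, 2.42 and 2.39 FPKM in LoF and 9.43 and 16.7 in WT (-1.88 ± 0.48 on the log2 scale, adjusted p = 0.0841), and its relative Lef1 at 1.06, 1.47, 0.192 and 5.47 and 2.96 and 1.99 (-0.46 ± 0.64 on the log2 scale, adjusted p = 0.817). Notum, Wif1 and Lgr6 had log2 fold changes of -0.99, -1.20 and -1.54 and were not called (adjusted p = 0.568, 0.211 and 0.168). Ccnd1, cyclin D1, was at 5.28, 3.28, 9.34 and 11.7 FPKM in LoF and 7.95 and 5.72 in WT, a difference of -0.01 (adjusted p = 0.998). The call of Bambi was lost in 14 of 17 alternative settings, each single library left out among them, and that of Dkk1 in 6, so that no Wnt target was called without LoF library 2, without WT library 2, without a filter or with sex as a covariate.

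Components of the pathway upstream of these targets were not called. None of 18 tested Wnt ligands, receptors and secreted modulators passed, and none of 12 tested genes of the destruction complex and of cadherin junctions did; the medians, 0.09 and 0.04, were near 0 and changed sign with the scaling. The receptor pair Lrp5 and Lrp6 had log2 fold changes of -0.10 and -0.54, and Frzb, a secreted antagonist, had -2.13 (adjusted p = 0.169). Jup, plakoglobin, the close relative of β-catenin that can take its place at junctions, was at 8.91, 9.104, 8.29 and 12.7 FPKM in LoF and 6.64 and 7.57 in WT (0.39 ± 0.38 on the log2 scale, adjusted p = 0.717). Outside the list, Wisp1, a matricellular protein known as a Wnt-induced gene, was at 16.1, 1.74, 0.883 and 10.4 FPKM in LoF and 52.7 and 74.9 in WT (-3.50 ± 0.76 on the log2 scale, adjusted p = 0.0448), and Rspo3, which amplifies Wnt signals at the receptor and was picked out after its values were seen, was higher at 33.99, 78.2, 28.9 and 51.4 against 11.7 and 5.95 FPKM (2.28 ± 0.46 on the log2 scale, adjusted p = 0.0334).

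In the adipocyte list 4 genes rose, Fabp4, Cd36, Lpl and Plin2, and the other 16 tested were not called. Fabp4, the fatty acid binding protein of adipocytes and of some endothelial cells (ENSMUSG00000062515.3, chr3:10204088-10208576), was at 210.1, 97.9, 84.98 and 135 FPKM in LoF and 1.88 and 0 in WT (6.2 ± 0.63 on the log2 scale, adjusted p = 0.00259), the largest fold change of all called genes. Cd36, a fatty acid transporter found on adipocytes, capillaries and phagocytes, was at 32.1, 54.95, 23.3 and 26.9 FPKM in LoF and 1.38 and 0 in WT (4.44 ± 0.51 on the log2 scale, adjusted p = 0.00296), and Lpl, the lipase that frees fatty acids from lipoproteins, at 386, 595, 398 and 462 and 95.4 and 16.5 (3.47 ± 0.56 on the log2 scale, adjusted p = 0.0138). In each of these 3 genes all LoF libraries were above both WT libraries, and WT library 1 was above WT library 2. Plin2, the coat of lipid droplets in many cell types, was at 30.9, 61.1, 55.3 and 81.4 FPKM in LoF and 17.2 and 9.79 in WT (1.97 ± 0.41 on the log2 scale, adjusted p = 0.041). Capillary endothelium also makes Fabp4 and Cd36. LoF library 3, with the endothelial sum of 122 FPKM, held 84.98 FPKM of Fabp4 and 23.3 of Cd36. LoF library 4, with a sum of 1.5 FPKM, held 135 and 26.9. The part of endothelial cells in these levels was not tested.

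The rest of the adipocyte program was not called. Of 33 adipocyte genes 20 were tested, and 7 were at 0 in all 6 libraries. Of the 20 tested, 4 were higher, against 0.795% of all genes, and none was lower, with a median of 0.60. Adipoq, adiponectin, was at 24.8, 62.1, 0.567 and 26.7 FPKM in LoF and 11.96 and 0 in WT (2.18 ± 1.30 on the log2 scale, adjusted p = 0.516), so its level ran over a wide range within LoF. Plin1, the droplet coat of fat cells, was at 2.74, 0.949, 3.36 and 1.36 FPKM in LoF and 0.72 and 0 in WT (1.17 ± 0.52 on the log2 scale, adjusted p = 0.349). Of 12 tested adipocyte transcription factors none passed, although 9 were positive (median 1.13): Pparg, the master factor of fat cells, was at 15.1, 10.9, 10.6 and 22.4 FPKM in LoF and 4.72 and 1.47 in WT (2.003 ± 0.53 on the log2 scale, adjusted p = 0.0957), and Cebpa at 3.42, 6.83, 3.74 and 5.22 and 0.916 and 1.52 (1.36 ± 0.48 on the log2 scale, adjusted p = 0.225). Fatty acid synthesis genes had negative values, with Fasn at -0.38 and Scd1 at -1.04 (adjusted p = 0.839 and 0.422). Without WT library 1, 3 adipocyte genes were called, and without WT library 2 none.

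Genes of marrow stromal cells, the reticular cells that support blood formation, held 3 calls. Of 23 tested, 3 were higher, against 0.795% of all genes, and none was lower. The log2 fold change was positive in 18, and the median was 1.01. All LoF libraries lay above both WT libraries in 9 of 23, against 12% of all genes. Cxcl12, the chemokine that keeps blood stem cells in the marrow, was at 553, 1572, 482 and 806 FPKM in LoF and 236 and 49.1 in WT (2.81 ± 0.60 on the log2 scale, adjusted p = 0.0421). Kitl, stem cell factor, was at 25.5, 60.4, 28.5 and 37.8 FPKM in LoF and 4.27 and 5.74 in WT (2.63 ± 0.48 on the log2 scale, adjusted p = 0.0224), and Vcam1, an adhesion molecule, at 72.1, 134, 34.5 and 42.2 and 14.2 and 3.87 (2.86 ± 0.61 on the log2 scale, adjusted p = 0.044). The LoF libraries of all 3 were above WT. Lepr, the receptor that marks adult marrow stroma, was at 15.7, 32.6, 2.15 and 11.02 FPKM in LoF and 51.3 and 27.02 in WT and was not called (-1.66 ± 0.73 on the log2 scale, adjusted p = 0.342). Pdgfra and Pdgfrb, growth factor receptors of mesenchymal cells, had log2 fold changes of -0.41 and 0.87 (adjusted p = 0.792 and 0.453). These calls depended on the setting: with a pseudocount of 0.1 no member was called, and with only the 6 LoF and WT libraries in the fit 1 was; without LoF library 2, and without WT library 2, none was.

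The pair of cytokines that governs osteoclast formation moved in opposite directions. Tnfsf11, RANKL, which drives osteoclast formation, was at 65.6, 58.04, 58.2 and 56.6 FPKM in LoF and 14.7 and 9.92 in WT (2.21 ± 0.37 on the log2 scale, adjusted p = 0.0155). Tnfrsf11b, osteoprotegerin, its decoy receptor and a known target of β-catenin in osteoblasts, was at 1.48, 0.583, 0 and 0 FPKM in LoF and 9.72 and 11.3 in WT (-3.03 ± 0.52 on the log2 scale, adjusted p = 0.0168). For neither gene did the groups overlap, so each LoF library had more RANKL and less osteoprotegerin transcript than each WT library. The growth factor of osteoclast precursors, Csf1, was not called (0.75 ± 0.46 on the log2 scale, adjusted p = 0.53), and 7 of the 12 cytokine genes did not reach the filter. The calls of both genes were lost without WT library 1 and without WT library 2.

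Matrix proteases and their inhibitors held 2 calls. Of 20 tested, 1 was lower and 1 was higher, against 0.868% and 0.795% of all genes, with a list median of 0.35. Mmp16, a membrane-bound metalloproteinase, was at 10.7, 5.72, 4.27 and 5.802 FPKM in LoF and 52.8 and 40.7 in WT (-2.70 ± 0.40 on the log2 scale, adjusted p = 0.00906), and Htra1, a secreted serine protease, was higher (1.36 ± 0.28 on the log2 scale, adjusted p = 0.0395), a call lost in 15 of 17 alternative settings. Mmp13, the collagenase of late hypertrophic chondrocytes, was at 4312, 4784, 4119 and 3113 FPKM in LoF and 2106 and 1514 in WT (1.17 ± 0.57 on the log2 scale, adjusted p = 0.401). Mmp9, a gelatinase, was at 5913, 4768, 4691 and 3735 FPKM in LoF and 3167 and 2403 in WT (0.77 ± 0.24 on the log2 scale, adjusted p = 0.168), high in all 6 libraries. It was at 3.27 and 2.56 FPKM in the GoF libraries.

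Igf2, 2 binding proteins of insulin-like growth factors and Fgf7 rose. Igf2 itself, a fetal growth factor expressed from the paternal allele (ENSMUSG00000048583.16, chr7:142650766-142666816), was at 39.3, 51.8, 87.8 and 132 FPKM in LoF and 1.61 and 4.25 in WT (4.26 ± 0.51 on the log2 scale, adjusted p = 0.00339). The binding proteins Igfbp2 and Igfbp7 followed: Igfbp2 was at 30.7, 38.1, 22.7 and 14.2 FPKM in LoF and 1.63 and 0 in WT (3.99 ± 0.55 on the log2 scale, adjusted p = 0.00732), and Igfbp7 at 427, 312, 332 and 277 and 66.3 and 49.2 (2.52 ± 0.28 on the log2 scale, adjusted p = 0.00296). LoF and WT did not overlap in these 3 genes. Fgf7, a fibroblast growth factor of mesenchymal cells, was at 36.9, 63.8, 40.8 and 30.99 FPKM in LoF and 3.97 and 5.82 in WT (2.87 ± 0.41 on the log2 scale, adjusted p = 0.00838). With these, 4 of 18 tested IGF and FGF genes were higher, against 0.795% of all genes, and none was lower (median 0.69). Igf1, Igf1r and Igfbp5 had log2 fold changes of 2.11, 1.87 and 2.47 that did not pass (adjusted p = 0.0678, 0.064 and 0.064). Without WT library 1 Igfbp2 and Igfbp7 kept the call, and without WT library 2 none did. Of 11 tested imprinted genes Igf2 was the only call; H19, its maternally expressed neighbour, was at 8.82, 12.04, 7.14 and 56.3 FPKM in LoF and 5.63 and 3.99 in WT (1.44 ± 0.73 on the log2 scale, adjusted p = 0.417), and Cdkn1c, a cell cycle inhibitor, at 7.33, 21.2, 23.9 and 20.5 and 2.14 and 2.17 (2.49 ± 0.59 on the log2 scale, adjusted p = 0.0626).

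Genes of hypertrophic chondrocytes were next. Of 15 tested, 3 were lower, against 0.868% of all genes, and none was higher. The 3 were Ibsp, given above, Panx3, a channel of prehypertrophic cells and osteoblasts, and Phospho1, the phosphatase that starts mineral inside matrix vesicles. Panx3 was at 28.04, 21.6, 14.7 and 34.2 FPKM in LoF and 103 and 101 in WT (-2.07 ± 0.34 on the log2 scale, adjusted p = 0.0155), and Phospho1 at 0, 0, 4.27e-05 and 1.002 and 4.23 and 9.96 (-2.67 ± 0.54 on the log2 scale, adjusted p = 0.0362). Col10a1 had a log2 fold change of 1.94 that was not called (SE 0.77, adjusted p = 0.285). Ihh, the hedgehog ligand of prehypertrophic cells, was at 0, 0, 0 and 0 FPKM in LoF and 0 and 0 in WT. No gene of this list was called without WT library 1, nor without WT library 2.

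In the cartilage list 2 collagens fell among 19 tested genes, against 0.868% of all genes. The minor fibrillar chains Col11a1 and Col11a2, made by osteoblasts as well as by cartilage, were the only called members of 19 tested: Col11a1 was at 52.97, 23.05, 21.5 and 25.6 FPKM in LoF and 159 and 146 in WT (-2.37 ± 0.36 on the log2 scale, adjusted p = 0.0104), and Col11a2 at 6.804, 7.99, 4.55 and 3.24 and 43.2 and 41.1 (-2.76 ± 0.38 on the log2 scale, adjusted p = 0.00741). The median of the list was 0.92, with 12 positive and 7 negative members. Col2a1, the main collagen of cartilage, was at 7.39, 35.3, 17.9 and 38.3 FPKM in LoF and 9.48 and 5.64 in WT (1.39 ± 0.58 on the log2 scale, adjusted p = 0.319), and Acan, aggrecan, at 1.16, 14.1, 17.8 and 15.2 and 1.49 and 2.15 (1.83 ± 0.78 on the log2 scale, adjusted p = 0.327). Sox9, the factor that defines chondrocytes, was at 0.557, 0.639, 4.31 and 0.142 FPKM in LoF and 0 and 1.93 in WT (0.21 ± 0.67 on the log2 scale, adjusted p = 0.931), and the sign of this difference turned with the setting, down to -0.56 without WT library 1.

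**Figure D5:**
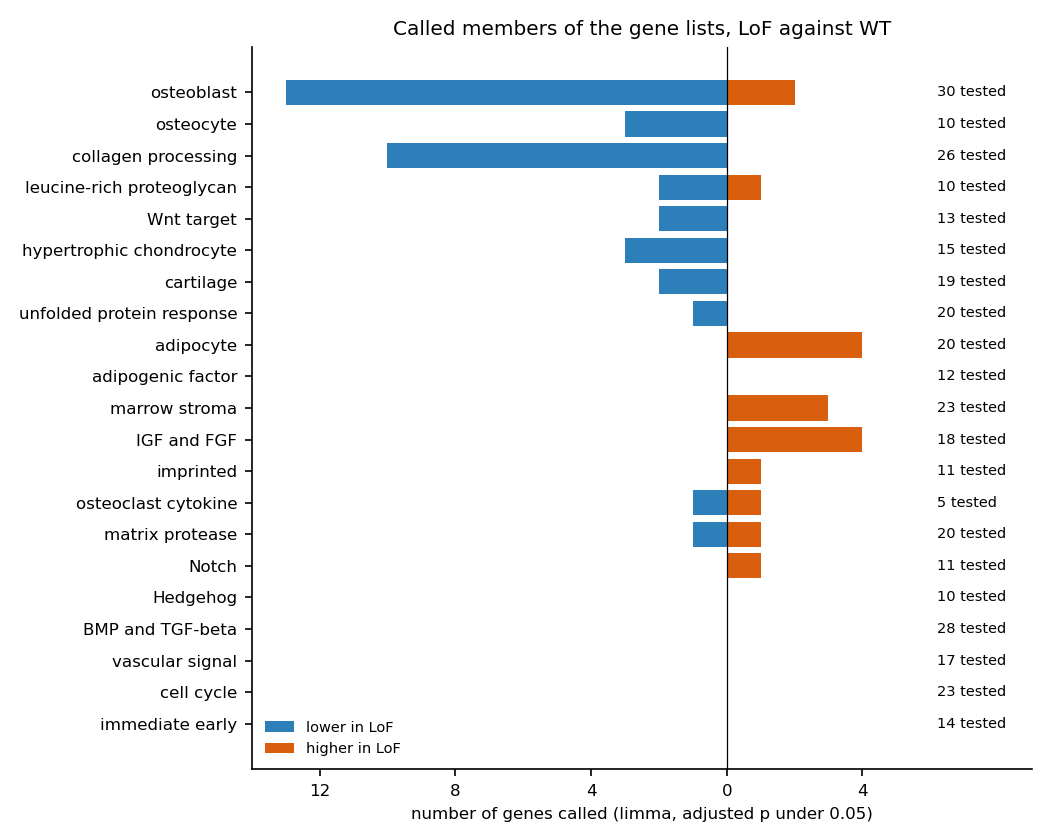
For each gene list, bars to the left count members lower in LoF and bars to the right members higher in LoF (limma, adjusted p under 0.05). Osteoblast genes, with 13 lower, and collagen enzymes, with 10 lower, have the longest bars, and most signalling lists have none.

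Other signalling and cell state lists showed few calls. None of 28 tested BMP and TGF-β genes passed (median 0.13), nor any of 10 hedgehog, 17 vascular signalling, 23 cell cycle, 18 hypoxia and glycolysis or 14 immediate early genes. Mki67 and Top2a, proliferation markers, had log2 fold changes of -0.51 and 0.20 (adjusted p = 0.751 and 0.904), and Id1, a BMP target, 1.68 (adjusted p = 0.0883). Of 11 tested Notch genes, Hey1, a target of the pathway, was higher at 65.5, 22.3, 30.8 and 36.3 against 10.3 and 4.799 FPKM (2.19 ± 0.47 on the log2 scale, adjusted p = 0.0435); the call was lost in 17 of 17 alternative settings.

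Several S100 genes, which encode small calcium-binding proteins, rose. This family was picked out after its values were seen. In it, 5 of 10 tested genes were higher, against 0.795% of all genes, and none was lower. All LoF libraries lay above both WT libraries in 8 of 10, against 12% of all genes. S100a6 (ENSMUSG00000001025.8, chr3:90612882-90624181), called calcyclin, was at 359.9, 318, 623 and 493 FPKM in LoF and 12.4 and 30.6 in WT and had the smallest adjusted p of all genes (4.40 ± 0.39 on the log2 scale, adjusted p = 0.00209). S100a10, the annexin A2 partner, and S100a11 had log2 fold changes of 1.37 and 1.66 (adjusted p = 0.0334 and 0.0144), and S100a13 and S100a16 of 2.11 and 1.85 (adjusted p = 0.0207 and 0.0205). S100a8 and S100a9, made by neutrophils, had negative values and were not called (adjusted p = 0.365 and 0.522). Tmsb4x, thymosin β4, which binds actin monomers, rose at a high level, from 528 and 538 FPKM in WT to 1707, 2192, 1836 and 1909.6 FPKM in LoF (1.83 ± 0.21 on the log2 scale, adjusted p = 0.00296).

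Among other extracellular proteins, type VI collagen, which forms a beaded network around cells, was higher: Col6a1 was at 44.6, 38.4, 64.4 and 53.8 FPKM in LoF and 11.7 and 2.25 in WT (2.97 ± 0.50 on the log2 scale, adjusted p = 0.0155), Col6a2 had a log2 fold change of 2.77 (adjusted p = 0.0144) and Col6a3 of 1.69 (adjusted p = 0.117, not called). This family too was picked out after its values were seen. Ptx3, a pentraxin of innate immunity, was at 6.62, 28.9, 5.41 and 19.8 FPKM in LoF and 0 and 0.352 in WT (3.50 ± 0.67 on the log2 scale, adjusted p = 0.0288). Clu, clusterin, an extracellular chaperone, was at 33.8, 82.99, 204 and 131 FPKM in LoF and 19.5 and 1.49 in WT (3.72 ± 0.78 on the log2 scale, adjusted p = 0.041). Both WT libraries were low for Ptx3, whereas for Clu WT library 1 approached the lowest LoF library. Gzme, a granzyme gene, was at 28.9, 17.8, 51.3 and 11.6 FPKM in LoF and 2.702 and 0.871 in WT (3.23 ± 0.59 on the log2 scale, adjusted p = 0.0229), and Pcbd2, a cofactor-recycling enzyme, at 43.2, 32.1, 58.4 and 30.5 and 4.42 and 0 (4.13 ± 0.59 on the log2 scale, adjusted p = 0.00795).

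The lower genes with the largest changes outside the lists were of varied function. Car3, a carbonic anhydrase, was at 40.5, 23.99, 17.6 and 40.8 FPKM in LoF and 207 and 388 in WT (-3.25 ± 0.38 on the log2 scale, adjusted p = 0.00296). Slc36a2, an amino acid transporter, was at 11.3, 2.79, 1.09 and 4.4 FPKM in LoF and 39.4 and 54.1 in WT (-3.30 ± 0.58 on the log2 scale, adjusted p = 0.0194). Gal, the neuropeptide galanin, was at 7.33, 0, 0 and 0 FPKM in LoF and 33.04 and 15.3 in WT (-3.80 ± 0.80 on the log2 scale, adjusted p = 0.041), so LoF library 1 alone held transcripts. Tiam1, an activator of Rac, was at 0, 0.792, 0 and 0 FPKM in LoF and 7.84 and 13.6 in WT (-3.30 ± 0.49 on the log2 scale, adjusted p = 0.01). Chn1os1, a transcript antisense to Chn1, was at 0, 1.403, 0 and 0 FPKM in LoF and 13.1 and 9.22 in WT (-3.27 ± 0.63 on the log2 scale, adjusted p = 0.0301); Chn1, which encodes a Rac-inactivating chimaerin, fell too (-2.87 ± 0.45 on the log2 scale, adjusted p = 0.0124), and reads of the 2 genes cannot be told apart without strand.

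Called genes listed at 0 in all libraries of a group numbered 7 for LoF and 12 for WT, and those that are not predicted genes or pseudogenes are given here. A gene at 0 throughout a group can pass the filter only through the other group. The direction of these genes was therefore fixed by the filter. At 0 in LoF and lower were Stfa1 (32.3 and 3.49 FPKM in WT), Kel (11.3 and 9.61), Cryba4 (4.995 and 6.33), Prss50 (3.43 and 7.74), Igll1 (2.76 and 5.32) and Klf12 (5.47 and 2.17). Stfa1 is a stefin of myeloid cells, Kel the Kell antigen of red cells and Igll1 a surrogate light chain of early B cells, and Mpo, the granule enzyme of neutrophil precursors, was at 0.252, 0, 0 and 0 FPKM in LoF and 4.96 and 7.55 in WT (-2.75 ± 0.51 on the log2 scale, adjusted p = 0.0235). The blood cell sums given above overlapped between the groups, at 42.6 to 174 FPKM in LoF and 289 and 113 FPKM in WT. The erythroid sums were 76.0 to 2277 FPKM in LoF and 2559 and 10575 FPKM in WT. The part of blood and red cells in these calls was not tested. At 0 in WT and higher were C1qtnf3 (3.26, 3.84, 7.13 and 7.43 FPKM in LoF), a secreted C1q-related protein, Hnmt (16.9, 7.68, 3.43 and 8.43), which breaks down histamine, and Prss23 (2.26, 12.5, 7.36 and 25.3), a secreted protease. Mt2, Tppp3 and Efemp1 were also at 0 in WT but were not called (adjusted p = 0.0956, 0.0626 and 0.0594).

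Cytosolic ribosomal protein genes were often higher, with all LoF libraries above both WT libraries in 59 of 85 tested, against 12% of all genes. Called higher were 4 (Rpl26, Rps24, Rpl21 and Rps15a), against 0.795% of all genes. The median was 0.59, or 0.30 with quantile normalization and 0.49 after rescaling without ribosomal RNA-like genes. Ribosomal protein genes have many near-identical pseudogene copies, so single values are uncertain. The family was picked out after its values were seen. The share of ribosomal RNA-like genes was smaller in LoF, as given above, and its part was not tested beyond that rescaling.

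The median SD over genes on the log2 scale was 0.60 among the LoF libraries (n = 4) and 0.35 between the WT libraries (n = 2). A median SD runs lower for 2 libraries than for 4. In addition, 1020 genes reached the filter through LoF libraries alone and 99 through WT libraries alone. These values therefore do not rank the spreads. Osteoblast genes were among those that varied within LoF. Libraries 1 and 4 had more transcript of Col1a1 and Smpd3, and of Wisp1 outside that list, than libraries 2 and 3. Col1a2, Ibsp, Sparc and Runx2 showed the same split, while Alpl, Bglap, Sp7, Spp1 and Col3a1 did not. Libraries 2 and 3 are also those with Y-linked transcripts. Sex cannot be told apart from other differences between these libraries. The genes with the widest range within LoF included Auts2, at 214, 3.18, 1.85 and 5.51 FPKM in LoF and 292.7 and 3.28 in WT, Fastkd2, at 1.18, 2.85, 0 and 38.7 and 6.04 and 9.15, and Rpl29, at 0, 0, 194 and 121 and 132 and 136. For Auts2 1 library of each group was far above the others, a pattern no group explains.

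The GoF libraries place a few of these genes beside stabilised β-catenin; both mutant groups are set against the same WT libraries, so only levels are given. Dmp1 was at 523 and 177 FPKM in GoF, Col1a1 at 6090.0 and 4626, P4ha1 at 465 and 441 and Car3 at 619 and 658. Fabp4 was at 3.27 and 0 FPKM in GoF, Cd36 at 0 and 0, Cxcl12 at 0.674 and 0 and Igf2 at 13.4 and 25.5. For Tnfrsf11b the GoF libraries read 44.6 and 83.1 FPKM and for Dkk1 30.1 and 19.9. Clu was at 242 and 202 FPKM in GoF and S100a6 at 86.7 and 140.3. Clu, S100a6 and Igf2 were thus above WT in every library of both mutant groups. Both GoF libraries held Y-linked transcripts and no Xist, and both WT libraries the reverse. Sex and genotype therefore cannot be told apart between GoF and WT.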

How the data were processed

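Per the labels' protocols, RNA of 8 pools of 70 cells (4 LoF, 2 GoF, 2 WT) was amplified with Smart-seq2. The authors deposited 1 table of FPKM for every gene in each library, so read counts are not given and no count model was used. The submitters' processing notes name Cufflinks, HTSeq, HISAT2 and SAMtools 0.1.18 and the mm10 genome, without role or order; the annotation release is not given in the sources used here. Each FPKM is relative to the library's total, so an abundant class lowers all other genes. Smart-seq2 does not keep strand. Of 48555 lines, 65 repeated a gene ID with identical values, which left 48490 genes; all 8 libraries list 0 for the 37 genes of the mitochondrial genome. No 2 libraries held identical values.

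Groups came from the labels. Values were tested as log2(FPKM + 1) with limma (version 3.58.1, run in R 4.3.3; group means over LoF, GoF and WT, moderated with a mean-variance trend, 11.4 total degrees of freedom), on genes with at least 1 FPKM in at least 2 of the 6 LoF and WT libraries. A gene was called at a Benjamini-Hochberg adjusted p under 0.05 over 12207 genes. The code was tested on simulated data. Read depth is unknown, so no counting intervals were made; relative depth, read from ratios among low genes, was 0.90 to 1.16.

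The comparison, the 29 gene lists and the genes named were chosen with earlier results of these data known, so a list is no independent support for its direction. Named genes are the called genes without overlap that changed most, 12 per direction (predicted genes left out), up to 6 called members per list and direction, a chosen set of pathway and lineage genes regardless of change, the 8 genes with the highest level among those at 0 in a group, and the 8 with the widest range within LoF. Other settings were a pseudocount of 0.1, no filter, a filter over all 8 libraries, median ratio scaling, quantile normalization, only the 6 libraries in the fit, no trend, the replicate number as a block, sex as a covariate, and leaving out each library. A fit without the LoF libraries that hold Y-linked transcripts, and rescaling without ribosomal RNA-like genes, were added after seeing the data. Results of a few withheld genes are not reported here.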

Additional observations from a re-analysis of the deposited data

Results flagged for a closer look

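In 11 of 139 sets of 4 LoF libraries, among genes and lists of the report, 1 library stood apart, by a gap to its nearest neighbour that exceeds the 95% critical share of the whole range in Dixon's test for 4 values. Chance gives such a gap in about 1 of 20 sets. Most were low genes in which a single library held transcripts. LoF library 1 stood above the others for Gal (7.33 FPKM), Tcf7 (3.92 FPKM), Dkk1 (0.4995 FPKM) and Mpo (0.2518 FPKM), and below them for Acan (1.16 FPKM) and Mt2 (4.44 FPKM). LoF library 2 stood above for Chn1os1 (1.40 FPKM) and Tiam1 (0.7916 FPKM). LoF library 3, the library with most endothelial transcripts, stood above for Irx5 (2.98 FPKM), an Iroquois homeobox gene, and below for Bambi (1.38 FPKM). LoF library 4 stood above for Phospho1 (1.00 FPKM). Of these genes Gal, Dkk1, Mpo, Chn1os1, Tiam1, Bambi and Phospho1 were called lower in LoF, and in each the library that stood apart was still below both WT libraries.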

How the results depend on the processing

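The number of calls depended strongly on the setting, and 83 of the 203 called genes kept their call in at least 10 of 17 settings. None of the 203 changed sign, but most settings could not have turned it, since the groups do not overlap in these genes. Called genes numbered 55 higher and 60 lower with a pseudocount of 0.1, 19 and 30 without a filter, 60 and 53 with only the 6 libraries, 37 and 50 without a trend, 7 and 10 with sex as a covariate, and 0 and 0 for the Xist-only LoF libraries; quantile normalization gave 167 lower. Leaving out 1 library gave 3 to 90 higher and 2 to 101 lower genes, and the fewest came without WT library 2. Numbers 1 and 2 are shared by the groups. Same-numbered libraries deviated together with correlations of 0.015 and -0.007 only. With 2 WT libraries, whose deviations mirror each other, this cannot decide whether the numbers pair the groups. With the replicate block, LoF libraries 3 and 4 have no partner and drop out of the contrast, and 0 genes were higher and 1, Rpl29, lower. The replicate block left 0 calls in every list below.

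Lower osteoblast genes went from 13 to 4 without a filter, 8 without a trend, 5 with sex and 0 for Xist-only libraries, and 0 to 13 with a library left out. Lower osteocyte genes went from 3 to 1, 1 with sex, 0 for Xist-only and 0 to 3. Lower collagen enzymes went from 10 to 4 without a filter, 5 with 6 libraries, 2 without a trend, 2 with sex, 0 for Xist-only and 0 to 10. Lower hypertrophic genes went from 3 to 0 without a filter, 1 with sex, 0 for Xist-only and 0 to 3. Higher adipocyte genes went from 4 to 2 with a pseudocount of 0.1, 2 without a filter, 2 with sex, 0 for Xist-only and 0 to 4. Higher stromal genes went from 3 to 0 with the pseudocount, without a filter, without a trend, with sex and for Xist-only, to 1 with a filter over 8 libraries, quantile normalization or 6 libraries, and 0 to 3. Higher IGF and FGF genes went from 4 to 1 with sex, 0 for Xist-only and 0 to 5. Ctnnb1 stayed at -0.96 to -0.86 and was not called with any library left out.

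Genes that changed sign were none of the called ones. Apoe reached 0.67 with the replicate block and 0.11 and 0.02 without LoF library 3 or 4, and spanned -1.02 to 0.55 with a library left out. Auts2 reached 0.077 with sex and Xist-only and spanned -4.69 to 1.41. Fastkd2 reached 0.14 and Lef1 0.086 with sex and Xist-only. With a library left out Bglap2 spanned -4.92 to 0.30, Dlx5 -0.78 to 0.049 and Irx5 -0.83 to 0.31. Mmp14 was at -0.061 with quantile normalization and -0.015 after rescaling. Sox9 was at -0.10 with the replicate block, -0.36 with sex and Xist-only and -0.26 without LoF library 3, and spanned -0.56 to 0.99. The cause of these changes was not tested, beyond the fewer libraries or genes that a setting leaves.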
